A study of Mus musculus with 9 samples.

Results

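The genes described here are 42 members of the mouse nuclear receptor family outside the NR4A subgroup, taken as a fixed list and read from RNA-seq of MIN6 cells, an insulin-producing line from a mouse insulinoma that stands in for the pancreatic beta cell. All 42 were found among the 52408 genes of the table. An expressed gene was taken as one with at least 1 TPM in at least 3 of the 9 libraries, where TPM, the unit of the table, gives the part that a gene holds of a library's transcripts after correction for length. By this rule 19 receptor genes were expressed and 23 were not, against 11950 expressed genes in all. Of the 19, 17 reached 1 TPM in every library. The exceptions were Nr1h4, which passed through the 3 overexpression libraries and 2 EGCG libraries, and Nr1d1, which passed through the control and EGCG libraries.

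There were 3 libraries in each of 3 groups, and every library carried the label batch 1. The control group was MIN6 cells that had not been transfected. The overexpression group was MIN6 cells made to overexpress Nr4a1, an orphan nuclear receptor. The third group also overexpressed Nr4a1 and in addition received EGCG (epigallocatechin gallate, the main catechin of green tea). Because the control cells were untransfected, any effect of transfection is part of each difference from control and cannot be told apart from that of Nr4a1. No EGCG-treated group without overexpression was analysed here. The sources used here do not give the EGCG dose, its duration or how the cells were transfected. They also do not say whether the triplicates came from separate cultures, so p-values refer to the spread among these libraries, which may be technical.

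Nuclear receptors are transcription factors with a zinc-finger DNA-binding domain and a ligand-binding domain, and many switch between repressing and activating their targets when a lipid-soluble ligand binds. Thyroid hormone, retinoic acid, vitamin D, oxysterol, bile acid and fatty acid receptors work mostly as heterodimers with a retinoid X receptor (RXR). Steroid receptors bind as homodimers, and orphan receptors such as the REV-ERBs, the estrogen-related receptors and the testicular receptors act as monomers or dimers with no classical hormone. In beta cells members of the family take part in the control of insulin secretion, lipid handling and the circadian clock.

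Nr4a1 was between 0.63 and 0.78 TPM in the control libraries, between 123 and 165 TPM with overexpression and between 46.3 and 60.9 TPM with EGCG. The EGCG libraries thus held 38.9% of the Nr4a1 level of the overexpression libraries, and how far this shift contributed to the receptor differences between those groups was not tested. Of 8 beta cell markers all were expressed, with a summed level of 18800 to 20900 TPM in control, 26300 to 26700 TPM with overexpression and 20900 to 22000 TPM with EGCG. Ins2 held most of this sum (16100, 20600 and 17200 TPM by group mean), and other members differed from it: Mafa was at 62.9 ± 5.17, 38.7 ± 0.248 and 33.3 ± 4.42 TPM (SD, n = 3), lower in both Nr4a1 groups, while Pdx1 (42.4 ± 2.56, 70.6 ± 4.03 and 33.7 ± 4.07 TPM) and Nkx6-1 (4.73 ± 0.578, 6.38 ± 0.271 and 2.46 ± 0.48 TPM) had their highest mean with overexpression and their lowest with EGCG. The 4 alpha cell markers summed to 318 to 335, 729 to 810 and 293 to 326 TPM, almost all of it Gcg. The other expressed one, Irx2, was at 3.5 ± 0.885, 2.44 ± 0.0954 and 2.76 ± 0.516 TPM, with its highest mean in control. Of 5 acinar markers 1 was expressed, Cela1, at 4.68 ± 0.773, 4.26 ± 0.449 and 4.85 ± 0.233 TPM. Of the delta and PP cell, ductal, immune, fibroblast, endothelial, hepatocyte and adipocyte markers none was expressed, and the 3 adipocyte markers summed to 1.45 to 1.95, 0.36 to 0.61 and 0.98 to 1.32 TPM. These shifts in marker levels ran beside the receptor differences below, and their part in them was not tested.

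In the control cells the receptor of highest level was Thra (14.9 ± 0.872 TPM, SD, n = 3), followed by Nr1d2 (14.5 ± 1.04), Nr1h2 (12.8 ± 1.53), Nr3c1 (11.9 ± 0.856) and Vdr (11.8 ± 0.771). Neighbours among these 5 overlapped between libraries and could not be ranked. Below them Vdr, Nr2c2, Rxrb and Esrra were separated from each other in every control library. From Esrra down to Nr2c1 each gene overlapped with the next in the order, and Nr1d1 and Nr1h4 followed with no overlap. With overexpression Vdr was the highest receptor at 27.7 ± 0.312 TPM, and the mean of Thra lay below those of Nr1d2, Nr1h2, Nr3c1, Nr2c2, Rxrb, Esrrg and Esrra.

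**Figure D1:**
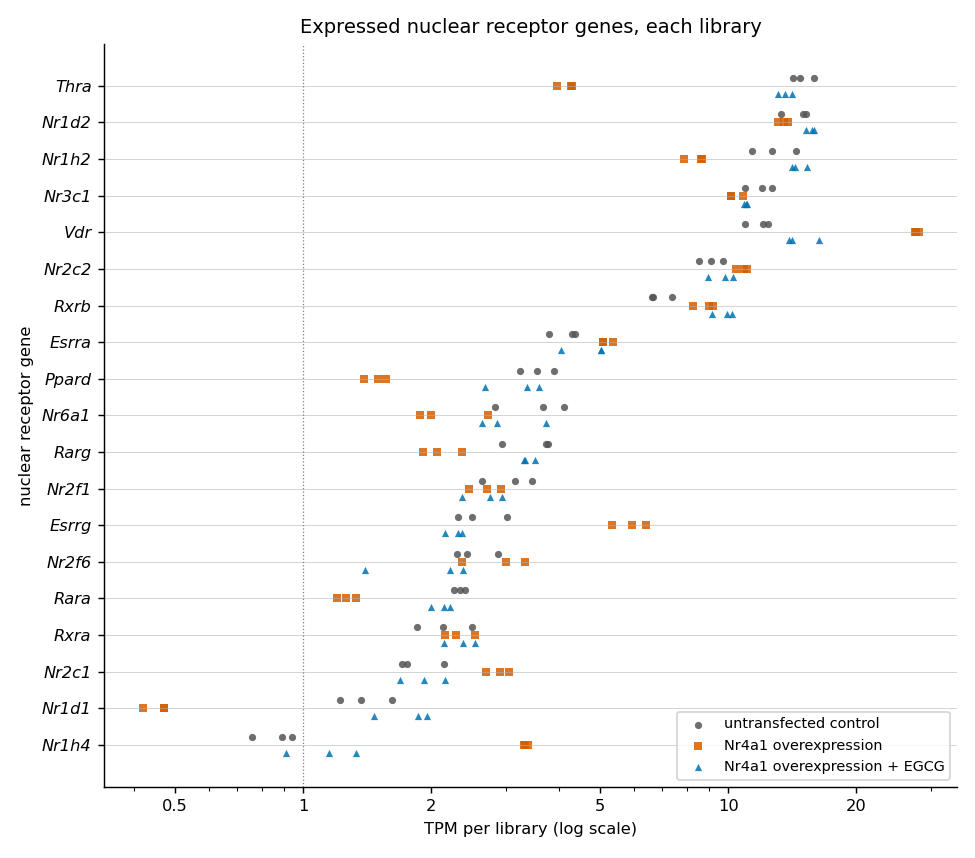
TPM of the 19 expressed receptor genes in each library, on a log scale, ordered by the control mean; circles are control, squares Nr4a1 overexpression and triangles overexpression with EGCG, and the dotted line marks 1 TPM. The squares of Thra, at 3.96 to 4.29 TPM, lie far to the left of its other libraries, and those of Vdr, at 27.5 to 28.1 TPM, far to the right.

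Differences are given below as the difference of mean log2(TPM + 1) between groups, which understates the change of genes with few TPM. They were tested with limma, a linear model that shares the estimate of spread over genes, and a gene is said to have risen or fallen where its two-sided p, adjusted by Benjamini and Hochberg's method over the 11950 tested genes, was under 0.05. All adjusted p-values below are of this kind. Between overexpression and control 15 of the 19 expressed receptors were called, 7 higher and 8 lower, with a background of 59.5% called over all tested genes (38.2% higher and 21.3% lower). Nr1d1 and Nr1h4 passed the threshold for expression only through groups in which they were high. The filter itself thus favoured a difference for them, so their calls add no support, and without them 13 of 17 were called. The median difference over the 19 was -0.10, also without Nr1d1 and Nr1h4, and over all tested genes it was 0.10. The libraries of the 2 groups did not overlap for 15 of the 19, Nr1d1 and Nr1h4 among them, and for 65.0% of all tested genes. By at least 2-fold on the log2(TPM + 1) scale, a size reached by 4.72% of all tested genes, Vdr rose and Thra fell, and Nr1h4 was higher. By group means of TPM, Esrrg was also 2.26-fold higher, and Ppard and Nr1d1 were at 41.8% and 32.3% of control. The split over the 19, with Nr1d1 and Nr1h4 included, depended on the scaling. With median-ratio scaling, quantile normalization or rescaling to nuclear protein-coding genes it was 5 higher and 9 lower. The median of all genes then moved from 0.10 to 0.02 or less, and 64.2% of all calls were higher as deposited against 50% after median-ratio scaling, 51.2% after quantile normalization and 54.2% after rescaling.

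Between EGCG and overexpression alone 12 of the 19 were called, 7 higher and 5 lower, with a background of 53.0% (18.8% higher and 34.1% lower). Without Nr1d1 and Nr1h4 the count was 10 of 17. Groups did not overlap for 14 of the 19, Nr1d1 and Nr1h4 among them, and for 64.6% of all tested genes. On the log2(TPM + 1) scale Thra rose and Esrrg fell by at least 2-fold, and Nr1h4 was lower by as much, which 3.05% of all tested genes did. By group means of TPM, Nr1d1 was also 3.89-fold and Ppard 2.16-fold higher. The median over the 19 was 0.07, also without Nr1d1 and Nr1h4, against -0.09 over all tested genes. Over the 19, with Nr1d1 and Nr1h4 included, 10 were higher and 4 lower with median-ratio scaling or rescaling, and 9 and 4 with quantile normalization. Over all genes 35.5% of calls were higher as deposited and 49.8%, 57.0% and 47.6% with those scalings.

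Between EGCG and control 2 of the 19 were called, Rxrb and Vdr, both higher, with a background of 18.2% (11.1% higher and 7.1% lower). No receptor was called lower by limma with Benjamini-Hochberg adjustment, and at an unadjusted p under 0.05 the count was still 0 lower, with 3 higher. Groups did not overlap for 5 of the 19 and for 34.8% of all tested genes. The median over the 19 was 0.03 and over all tested genes 0.02. These 3 comparisons share libraries with each other, so the members' values in them are set side by side below and are not counted as separate evidence. In total 6 receptors (Nr1d1, Nr1h2, Ppard, Rara, Rarg and Thra; 5 without Nr1d1) were lower with overexpression than in control, higher with EGCG than with overexpression and not called between EGCG and control. Esrrg, Nr1h4 and Nr2c1 (2 genes without Nr1h4) had the mirror pattern, as did Vdr, which also stayed above control. The share of all tested genes with either pattern was not counted, so these counts do not set the receptors apart from other genes. Rxra and Nr2f1 were called in none of the comparisons.

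**Figure D2:**
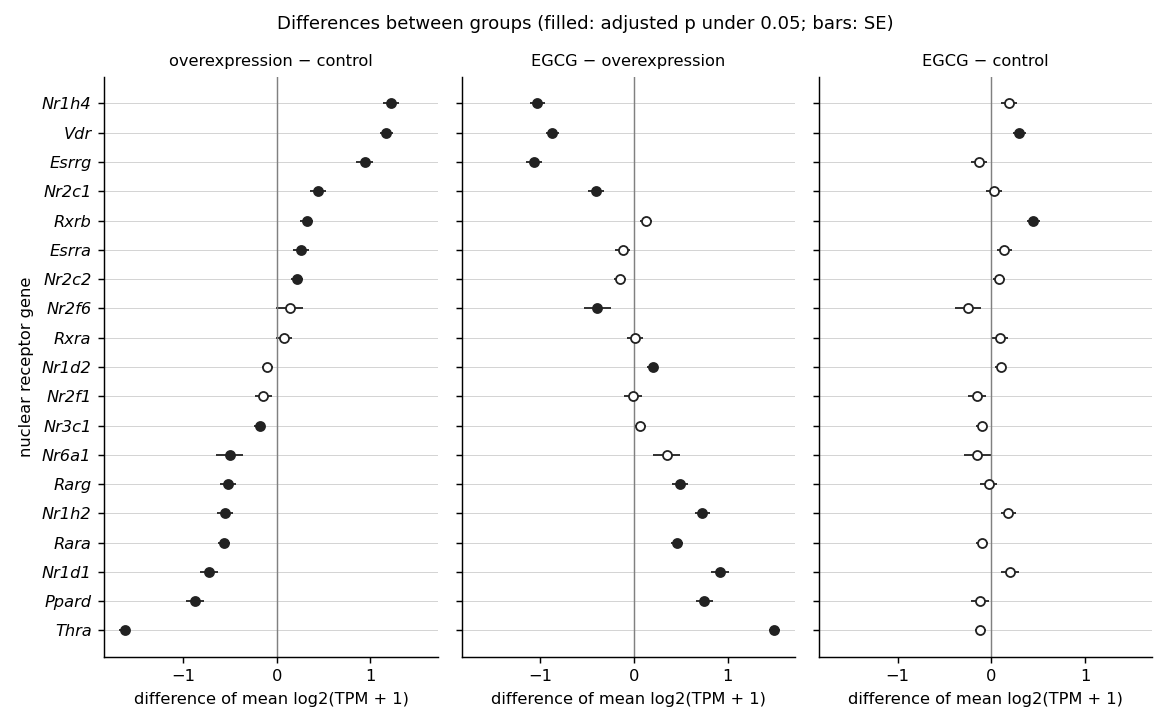
Differences of mean log2(TPM + 1) for the 19 expressed receptors in the 3 comparisons, with limma's SE as bars; filled points have an adjusted p under 0.05. The first panel spans -1.62 for Thra to 1.22 for Nr1h4, the second spans -1.07 for Esrrg, with Nr1h4 next at -1.03, to 1.5 for Thra, and the third holds 2 filled points, Vdr at 0.30 and Rxrb at 0.45.

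The promoters of 38 of the 42 genes were matched by symbol in RefSeq (build GRCm38.p6), from 250 bases before to 50 bases after the transcription start, 59 promoters in all. A gene is counted as holding a motif where any of its promoters does, and the shares given are over all 27025 genes of the table, counted in the same way. The promoters were searched on both strands for AAAGGTCA, the site bound by an NR4A monomer, for AGGTCA, the core site of many nuclear receptors, which lies within it, for the E-box CACGTG, bound by clock factors, and for ACGTG, the core of the hypoxia response element, which lies within the E-box. The NR4A site was in 1.7% of all genes (1.51% of the 32851 promoters of the same length) and in 2 of the 38 receptors, Rxra and Rxrg, of which Rxra was expressed and was called in no comparison. The core site was in 18.1% of all genes (16.3% of promoters) and in 11 receptors, among them Nr1d2, Nr1h4, Nr6a1, Rara, Rarg and Rxra of the expressed ones. CACGTG was in 8.09% of all genes (7.15% of promoters) and in 5 receptors, of which Rara was expressed. ACGTG was in 21.8% of all genes (19.6% of promoters) and in 12 receptors, of which 7 were expressed: Esrrg, Nr1d1, Nr2c1, Ppard, Rara, Rarg and Rxrb. By the call with overexpression it stood in 3 of the 7 higher receptors with a promoter, in 4 of the 6 lower ones, Nr1d1 among them, and in 0 of the 4 not called. The shares over all expressed and all called genes were not counted. The receptors also had more promoters per gene than the genes of the whole set, which raises the share with any match. These counts therefore do not set the receptors apart from other genes. A match of letters is a description and not a bound site. The windows below show the match in capitals with up to 50 bases on each side, and stop at the start site unless the match runs past it; they are shown because they are the only NR4A match of an expressed receptor (Rxra), the core site in the receptor with the largest positive difference on the log2 scale (Nr1h4) and ACGTG in receptors that moved in opposite directions (Nr1d1 and Ppard lower, Esrrg higher). The Rxra window is chr2:27709192-27709291 on the plus strand, with the match starting 50 bases before the start site. For Nr1h4 it is chr10:89506817-89506908, minus strand, 214 bases before. For Nr1d1 it is chr11:98775378-98775454, minus strand, 27 bases before. For Ppard it is chr17:28232504-28232595, plus strand, 213 bases before, and for Esrrg chr1:187651705-187651759, plus strand, 3 bases before.
Rxra: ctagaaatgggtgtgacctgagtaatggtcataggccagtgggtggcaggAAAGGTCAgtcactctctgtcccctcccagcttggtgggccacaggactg
Nr1h4: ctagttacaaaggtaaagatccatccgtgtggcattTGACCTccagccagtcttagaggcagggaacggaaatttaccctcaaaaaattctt
Nr1d1: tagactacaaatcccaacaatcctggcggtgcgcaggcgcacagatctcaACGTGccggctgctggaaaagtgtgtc
Ppard: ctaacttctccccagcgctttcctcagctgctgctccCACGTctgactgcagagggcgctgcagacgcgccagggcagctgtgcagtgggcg
Esrrg: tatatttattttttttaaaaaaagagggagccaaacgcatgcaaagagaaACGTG

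Thra encodes thyroid hormone receptor alpha, and its level showed the largest fall of the family. It was at 14.2, 14.8 and 15.9 TPM in the control libraries, at 4.28, 3.96 and 4.29 TPM with overexpression and at 13.1, 13.6 and 14.2 TPM with EGCG. The overexpression libraries lay far below all others, and the EGCG libraries ended just under the lowest control library. Thra fell by 1.62 ± 0.0586 (SE) in log2(TPM + 1) with overexpression (limma adjusted p = 2.16e-07), to 27.9% of the control mean. With EGCG it rose by 1.5 over the overexpression level (limma adjusted p = 3.14e-07), and against control the difference was -0.12 (95% interval -0.26 to 0.01). In bulk RNA a lower level can mean fewer cells with the transcript or less of it per cell, which cannot be told apart here. The other thyroid hormone receptor gene, Thrb, was between 0.01 and 0.18 TPM in the 9 libraries and was not tested.

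Thra makes proteins of different function from alternative 3' ends, and both main forms were measured. Thra-201, which encodes the 492-residue TR-alpha-2 that does not bind hormone, was at 11.4, 11 and 11 TPM in the control libraries, 2.81, 2.48 and 2.8 TPM under overexpression and 7.92, 7.96 and 8.78 TPM with EGCG. The 3 groups did not overlap, and EGCG lay between the other two. Thra-202, which encodes the 410-residue hormone-binding TR-alpha-1, was at 1.69, 2.58 and 2.14 TPM, 0.84, 0.88 and 0.88 TPM and 2.66, 2.30 and 2.67 TPM, with the overexpression libraries lowest. In limma across 23437 transcripts Thra-201 fell by 1.71 on the log2 scale with overexpression (Benjamini-Hochberg adjusted p = 2.18e-06). The difference of Thra-202 was -0.74, and no test is given for it because it passed the threshold only through the control and EGCG libraries. With EGCG Thra-201 stayed below control (-0.39 ± 0.0619 SE, limma adjusted p = 0.0115), while Thra-202 differed from control by 0.18 (adjusted p = 0.297). The ratio of Thra-201 to Thra-202 was 6.74, 4.26 and 5.12 in the control libraries, 3.35, 2.82 and 3.18 with overexpression and 2.98, 3.46 and 3.29 with EGCG, so that each control library lay above the other 6. The split between transcripts is the authors' estimate from shared reads.

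The retinoic acid receptors bind all-trans retinoic acid, and 2 of the 3 genes were expressed. Rara was at 2.40, 2.27 and 2.34 TPM without transfection, 1.33, 1.26 and 1.2 TPM after Nr4a1 overexpression and 2.00, 2.14 and 2.22 TPM when EGCG was added. The 3 groups did not overlap, and overexpression was lowest. Rara fell by 0.56 ± 0.0602 (SE) in log2(TPM + 1) (limma adjusted p = 5.81e-05) and rose by 0.46 with EGCG (adjusted p = 2.41e-04). Against control the EGCG libraries differed by -0.10 (adjusted p = 0.279).

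Rarg was at 2.93, 3.73 and 3.76 TPM in control cells, 1.91, 2.36 and 2.07 TPM in overexpressing cells and 3.51, 3.32 and 3.30 TPM in EGCG-treated ones. All overexpression libraries lay below the other 6, and the EGCG libraries fell within the control range. In log2(TPM + 1) Rarg fell by 0.52 with overexpression and rose by 0.49 with EGCG (limma adjusted p = 8.78e-04 and 0.00148). Among its transcripts Rarg-202, encoding 447 residues, was at 0.733 ± 0.274 TPM in control, 0.15 ± 0.135 TPM with overexpression and 1.12 ± 0.35 TPM with EGCG (SD, n = 3 each); it passed the threshold only through control and EGCG libraries, so no test is given. Rarg-201, encoding 458 residues, was at 2.09 ± 0.11 and 1.91 ± 0.178 TPM and was not called (-0.09, adjusted p = 0.390). Rarb was at 0.60, 0.29 and 0.03 TPM in control and at most 0.02 TPM elsewhere.

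Ppard encodes the fatty acid receptor PPAR-delta, a regulator of fatty acid oxidation. It was at 3.56, 3.89 and 3.23 TPM in the control libraries, 1.57, 1.5 and 1.39 TPM under overexpression and 3.36, 2.68 and 3.59 TPM with EGCG. The overexpression libraries were lowest with no overlap, and the EGCG and control libraries overlapped. Ppard fell by 0.87 ± 0.0927 (SE) in log2(TPM + 1), to 41.8% of the control mean (limma adjusted p = 5.45e-05), and rose by 0.75 with EGCG (adjusted p = 1.72e-04). Pparg, the adipogenic receptor, lay just outside the threshold for expression, at 1.00, 1.24 and 0.77 TPM without transfection, 0.53, 0.38 and 0.50 TPM after Nr4a1 overexpression and 0.70, 0.51 and 0.92 TPM when EGCG was added. Ppara, the fasting receptor of liver, was between 0.04 and 0.18 TPM.

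Nr1h2 encodes LXR-beta, an oxysterol receptor that drives cholesterol export and lipogenesis. It was at 11.4, 12.7 and 14.4 TPM in control cells, 8.69, 8.62 and 7.87 TPM in overexpressing cells and 15.3, 14.1 and 14.4 TPM in EGCG-treated ones. The overexpression libraries lay below the other 6, and 2 of the 3 EGCG libraries were within the control range. Nr1h2 fell by 0.55 ± 0.0813 (SE) in log2(TPM + 1) (limma adjusted p = 3.72e-04), and the EGCG libraries were 0.73 above the overexpression libraries (adjusted p = 9.77e-05). Against control the difference was 0.18 (95% interval -0.01 to 0.36, adjusted p = 0.153). Without control replicate 3 this difference was 0.26 and passed the test (limma adjusted p = 0.0268). The partner LXR gene, Nr1h3, was between 0.30 and 0.65 TPM.

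Vdr, the vitamin D receptor, was the receptor with the largest rise in TPM. It was at 10.9, 12.4 and 12.1 TPM in the control libraries, 27.5, 27.6 and 28.1 TPM under overexpression and 13.9, 16.4 and 14.2 TPM with EGCG. The 3 groups did not overlap, with overexpression highest and EGCG between. Vdr rose 2.35-fold by group means, by 1.17 ± 0.0706 (SE) in log2(TPM + 1) (limma adjusted p = 2.78e-06), and fell by 0.87 with EGCG (adjusted p = 1.84e-05). It remained 0.30 above control (adjusted p = 0.0224), a call that was lost without control replicate 1 (0.25, adjusted p = 0.0716), without EGCG replicate 2 (0.23, adjusted p = 0.0525) and with only the 6 libraries compared in the fit (0.30, adjusted p = 0.0685). The transcript Vdr-201, encoding the 422-residue receptor, held 94.9% of the gene's TPM in control and 93.9% with overexpression. Cyp24a1, which degrades active vitamin D and is a classical Vdr target, was at most 0.03 TPM in any library.

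Nr1h4 encodes FXR, the bile acid receptor. It was at 0.76, 0.89 and 0.94 TPM without transfection, 3.39, 3.33 and 3.31 TPM after Nr4a1 overexpression and 0.91, 1.15 and 1.33 TPM when EGCG was added. The overexpression libraries stood above the other 6 with no overlap, and control and EGCG overlapped. By group means it was 3.87-fold higher with overexpression than in control, a difference of 1.22 ± 0.0832 (SE) in log2(TPM + 1), and with EGCG it was at -1.03 relative to overexpression. No control library reached 1 TPM, so Nr1h4 was admitted to the test by its high libraries, and its p-values with that filter are not given. With no filter on low values, where no gene is admitted by its level, the differences were 1.22 and -1.03 (limma adjusted p = 2.3e-05 and 7.85e-05). Its transcript Nr1h4-201, encoding 484 residues and admitted in the same way, differed by 1.09 between overexpression and control. Nr0b2, the corepressor SHP that FXR induces in liver, was between 0.02 and 0.09 TPM, and the xenobiotic receptors Nr1i2 and Nr1i3 were at most 0.18 TPM.

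The retinoid X receptors are the shared partners of the receptors above. Rxrb was at 6.62, 6.65 and 7.37 TPM in control cells, 9.01, 8.28 and 9.23 TPM in overexpressing cells and 10.2, 9.16 and 9.94 TPM in EGCG-treated ones. Both Nr4a1 groups lay above control with no overlap, and they overlapped with each other. Rxrb rose by 0.32 ± 0.0649 (SE) in log2(TPM + 1) with overexpression (limma adjusted p = 0.00236) and was 0.45 above control with EGCG (adjusted p = 0.00481). Between EGCG and overexpression the difference was 0.13 (95% interval -0.02 to 0.28), which passed the test with median-ratio scaling (0.22), quantile normalization (0.23) and rescaling to nuclear protein-coding genes (0.27). The rise was in Rxrb-202, encoding 410 residues, at 2.37, 3.05 and 3.52 TPM in the control libraries, 5.30, 4.98 and 5.20 TPM under overexpression and 4.99, 5.81 and 4.69 TPM with EGCG. In the transcript fit it rose by 0.64 (limma adjusted p = 0.0025), while Rxrb-201, encoding 524 residues, differed by -0.12 (adjusted p = 0.604).

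Rxra was at 1.85, 2.13 and 2.50 TPM without transfection, 2.54, 2.16 and 2.29 TPM after Nr4a1 overexpression and 2.38, 2.15 and 2.54 TPM when EGCG was added. The 3 groups overlapped. The difference between overexpression and control was 0.08 (95% interval -0.12 to 0.28, limma adjusted p = 0.466), and it was -0.0038 with median-ratio scaling. Rxrg was listed at 0.03 TPM in 1 library and at 0 in the others. Within each library the ratio of Rxrb to Rxra lay between 2.95 and 3.58 in control, 3.55 and 4.03 with overexpression and 3.91 and 4.29 with EGCG. The ratio of Rxrb to Vdr was 0.584 ± 0.0416 in control, 0.319 ± 0.0164 in the overexpression libraries and 0.666 ± 0.0936 in the EGCG libraries (SD, n = 3).

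Nr1d1 and Nr1d2 encode REV-ERB-alpha and REV-ERB-beta, heme-binding repressors that form a feedback arm of the circadian clock. Nr1d1 was at 1.22, 1.62 and 1.37 TPM in control cells, 0.47, 0.42 and 0.47 TPM in overexpressing cells and 1.86, 1.47 and 1.96 TPM in EGCG-treated ones. The overexpression libraries were lowest with no overlap. With overexpression its mean was 32.3% of that of control, a difference of -0.72 ± 0.0926 (SE) in log2(TPM + 1), and with EGCG it was 0.92 above overexpression. No overexpression library reached 1 TPM, so Nr1d1 was admitted to the test by the other 2 groups, and its p-values for these differences are given only from the fit with no filter on low values (-0.72 and 0.92, limma adjusted p = 6.18e-04 and 2.33e-04). Against control the EGCG libraries differed by 0.20 (95% interval -0.01 to 0.41, adjusted p = 0.157).

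Nr1d2 was about an order of magnitude higher, at 15.0, 15.2 and 13.3 TPM in the control libraries, 13.5, 13.1 and 13.8 TPM under overexpression and 15.9, 15.3 and 15.7 TPM with EGCG. Control and overexpression overlapped, and EGCG lay just above both. The difference between overexpression and control was -0.10 (limma adjusted p = 0.178), which became a called fall with median-ratio scaling (-0.21, adjusted p = 0.00754), quantile normalization (-0.23, adjusted p = 0.00459), rescaling (-0.18, adjusted p = 0.0198) and without control replicate 3 (-0.15, adjusted p = 0.0232). With EGCG it rose by 0.20 over overexpression (adjusted p = 0.0168), a call lost without overexpression replicate 2 (0.18, adjusted p = 0.0608) or EGCG replicate 1 (0.19, adjusted p = 0.056). The ratio of Nr1d1 to Nr1d2 within a library was between 0.0815 and 0.106 in control, between 0.0321 and 0.0348 with overexpression and between 0.0964 and 0.125 with EGCG.

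Nr1d1 and Thra lie on opposite strands of the same locus and share 263 exon bases in the annotation, which is 8.55% of the exon bases of Nr1d1 and 5.7% of those of Thra. The libraries were made with a stranded kit, but the sources used here do not state the strand setting of the counting. Where reads were counted without strand, those over the shared bases could be assigned to either gene. The shared bases lie in Thra-201 and, for 130 of them, in Thra-203. Thra-202 shares 0 exon bases with Nr1d1. The part of such reads in the values of either gene was not tested.

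The estrogen-related receptors are orphan receptors that control mitochondrial and oxidative metabolism genes, and Esrrg is known for its role in the maturation of beta cells. Esrrg was at 3.02, 2.49 and 2.31 TPM without transfection, 6.41, 5.34 and 5.94 TPM after Nr4a1 overexpression and 2.16, 2.31 and 2.37 TPM when EGCG was added. The overexpression libraries stood above the other 6, which overlapped. Esrrg rose by 0.94 ± 0.087 (SE) in log2(TPM + 1), 2.26-fold by group means (limma adjusted p = 2.51e-05), and fell by 1.07 with EGCG (adjusted p = 1.82e-05). Its transcript Esrrg-201, encoding 458 residues, held 97.4% of the gene's TPM with overexpression.

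Esrra was at 3.78, 4.30 and 4.36 TPM in control cells, 5.07, 5.09 and 5.35 TPM in overexpressing cells and 5.02, 5.03 and 4.04 TPM in EGCG-treated ones. The overexpression libraries were highest with no overlap, and EGCG overlapped with control. Esrra rose by 0.26 ± 0.0818 (SE) in log2(TPM + 1) (limma adjusted p = 0.0203). The call was lost with median-ratio scaling (0.16, adjusted p = 0.134), quantile normalization (0.19, adjusted p = 0.0894), rescaling (0.19, adjusted p = 0.0776) and protein-coding transcripts only (0.23, adjusted p = 0.0587), and without control replicate 1 (0.21, adjusted p = 0.070) or overexpression replicate 3 (0.24, adjusted p = 0.0652). The ratio of Esrrg to Esrra was 0.636 ± 0.143 in control, 1.14 ± 0.111 in the overexpression libraries and 0.492 ± 0.0832 in the EGCG libraries (SD, n = 3). Esrrb and the estrogen receptors Esr1 and Esr2 were at most 0.15 TPM.

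Nr2c1 and Nr2c2 encode the testicular receptors TR2 and TR4, which bind direct repeats of the core site. Nr2c1 was at 2.14, 1.76 and 1.71 TPM in the control libraries, 2.91, 2.7 and 3.05 TPM under overexpression and 2.16, 1.92 and 1.69 TPM with EGCG. Overexpression lay above the other 6 libraries, which overlapped. In log2(TPM + 1) Nr2c1 rose by 0.44 with overexpression and fell by 0.41 with EGCG (limma adjusted p = 0.00186 and 0.00322).

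Nr2c2 was at 8.53, 9.73 and 9.13 TPM without transfection, 11.1, 10.9 and 10.5 TPM after Nr4a1 overexpression and 9.81, 8.98 and 10.3 TPM when EGCG was added. Overexpression was highest, with no overlap. It rose by 0.22 ± 0.0644 (SE) in log2(TPM + 1) (limma adjusted p = 0.0149). The call was lost with median-ratio scaling (0.11, adjusted p = 0.142), quantile normalization (0.09, adjusted p = 0.247), rescaling (0.14, adjusted p = 0.0803) and protein-coding transcripts only (0.03, adjusted p = 0.690), and without control replicate 1 (0.18, adjusted p = 0.0531) or overexpression replicate 1 (0.20, adjusted p = 0.0506). Its transcript Nr2c2-205, annotated as subject to nonsense-mediated decay, differed by 0.98 and reached 1 TPM in 1 control library and all 6 others, while the coding Nr2c2-201 differed by 0.11 (adjusted p = 0.162). Nr2c2 shares 4590 exon bases, 30.7% of its own, with Mrps25 on the opposite strand, which was at 11.6, 17.7 and 13.1 TPM by group mean, and the part of those reads in its value was not tested.

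Nr2f1, Nr2f2 and Nr2f6 belong to the COUP-TF group of orphan receptors, which mostly repress transcription. Nr2f6 was at 2.30, 2.87 and 2.43 TPM in control cells, 3.00, 3.32 and 2.37 TPM in overexpressing cells and 2.38, 2.22 and 1.40 TPM in EGCG-treated ones. The 3 groups overlapped, and the lowest value was that of EGCG replicate 3. Nr2f6 was lower with EGCG than with overexpression by -0.39 ± 0.142 (SE) in log2(TPM + 1) (limma adjusted p = 0.0451), and this call was lost under 12 of the 21 alternatives, with values from -0.44 to -0.23; without EGCG replicate 3 the difference was -0.23 (adjusted p = 0.136). Ocel1, on the opposite strand, shares 54.4% of the exon bases of Nr2f6 and was at 1.46, 2.05 and 1.5 TPM by group mean. Nr2f1 was between 2.37 and 3.46 TPM in the 9 libraries and was not called in any comparison. Its transcript Nr2f1-201, encoding 420 residues, was at 2.87, 2.33 and 2.15 TPM without transfection, 2, 1.67 and 1.22 TPM after Nr4a1 overexpression and 1.81, 1.71 and 1.87 TPM when EGCG was added. All control libraries lay above the other 6, and in the transcript fit it fell by 0.40 with overexpression (limma adjusted p = 0.0311). Nr2f2 lay just outside the threshold, at 1.39, 1.27 and 0.99 TPM in control and 0.66 to 0.95 TPM in the other 6 libraries.

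Nr3c1, the glucocorticoid receptor, was the only steroid receptor of the list that was expressed. It was at 12.7, 12 and 11 TPM in the control libraries, 10.9, 10.2 and 10.2 TPM under overexpression and 11.1, 10.9 and 11 TPM with EGCG. Control lay above overexpression by a narrow margin. Nr3c1 fell by 0.18 ± 0.0587 (SE) in log2(TPM + 1), to 87.5% of control (limma adjusted p = 0.0275), and the call was lost without control replicate 1 (-0.13, adjusted p = 0.0942), control replicate 2 (-0.17, adjusted p = 0.0701), overexpression replicate 2 (-0.16, adjusted p = 0.0845) or overexpression replicate 3 (-0.16, adjusted p = 0.0852), and with only the 6 libraries compared (-0.18, adjusted p = 0.0552). Between EGCG and overexpression the difference was 0.07 as deposited and was called with median-ratio scaling (0.17), quantile normalization (0.19) and rescaling (0.21). The mineralocorticoid and progesterone receptors Nr3c2 and Pgr were at most 0.10 TPM.

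Nr6a1, the germ cell nuclear factor, is an orphan repressor of pluripotency genes. It was at 3.66, 4.10 and 2.83 TPM without transfection, 1.88, 2.00 and 2.72 TPM after Nr4a1 overexpression and 2.64, 2.86 and 3.72 TPM when EGCG was added. Control and overexpression were separated by the narrow gap between control replicate 3 and overexpression replicate 3, and EGCG overlapped with both. It fell by 0.50 ± 0.143 (SE) in log2(TPM + 1) (limma adjusted p = 0.0138), and the call was lost with protein-coding transcripts only (-0.11, adjusted p = 0.153) and without control replicate 2 (-0.41, adjusted p = 0.0509) or overexpression replicate 1 (-0.43, adjusted p = 0.0527). One of its coding transcripts, Nr6a1-201, held 22.1% of the gene's TPM in control and 41.9% with overexpression, and differed by 0.10 (limma adjusted p = 0.692). Between EGCG and overexpression the difference was 0.35 (adjusted p = 0.0665), and it was called with median-ratio scaling (0.42, adjusted p = 0.0287), with rescaling (0.46, adjusted p = 0.0221), and without overexpression replicate 3 (0.46, adjusted p = 0.0316) or control replicate 3 (0.35, adjusted p = 0.0442).

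Of the transcripts of the 19 genes 33 were tested. With overexpression 5 rose and 8 fell, with a background of 46.3% called over 23437 transcripts (29.9% higher and 16.4% lower). Between EGCG and overexpression 8 rose and 4 fell, with a background of 33.1% (11.5% higher and 21.7% lower). Between EGCG and control 2 rose and 1 fell, with a background of 11.0% (6.41% higher and 4.56% lower). Only 17 of the 33 reached 1 TPM in every library; among these the counts were 3 higher and 4 lower, 3 higher and 3 lower, and 2 higher and 1 lower. The last count was 5 without control replicate 3 and 1 without EGCG replicate 1. The one transcript lower with EGCG than in control was Thra-201.

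**Figure D3:**
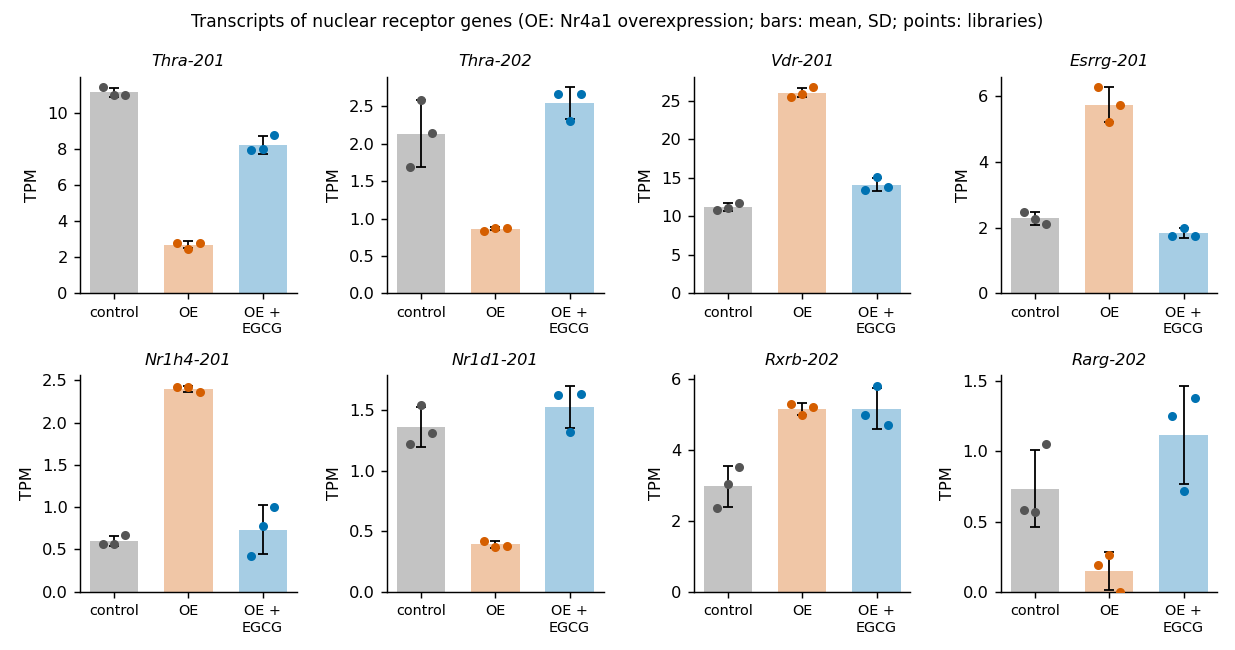
TPM of 8 receptor transcripts in the 3 groups (bars: mean of 3 libraries; error bars: SD; points: single libraries). Thra-201 at 2.7 TPM, Nr1d1-201 at 0.390 TPM and Rarg-202 at 0.15 TPM were lowest with overexpression, while Vdr-201 at 26.0 TPM, Esrrg-201 at 5.74 TPM and Nr1h4-201 at 2.40 TPM were highest there.

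Added together, the 42 receptors held a similar level in every library, 116, 122 and 117 TPM in control cells, 120, 118 and 120 TPM in overexpressing cells and 123, 121 and 123 TPM in EGCG-treated ones. What differed was the make-up of this sum. Vdr made up 9.99% ± 0.476 of it in control, 23.3% ± 0.306 upon overexpression and 12.1% ± 1.26 when EGCG was added (SD, n = 3). Thra made up 12.7% ± 0.811, 3.5% ± 0.123 and 11.2% ± 0.459. Nr1h2 went from 10.9% ± 1.31 to 7.05% ± 0.412 and 11.9% ± 0.433, and Esrrg from 2.21% ± 0.347 to 4.95% ± 0.405 and 1.87% ± 0.0951. Within each library the ratio of Vdr to Thra was between 0.759 and 0.841 in control, between 6.42 and 6.97 with overexpression and between 0.999 and 1.2 with EGCG, with no overlap between the groups. A ratio within a library does not depend on how the library was scaled, and it shows unequal change of the genes in it.

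**Figure D4:**
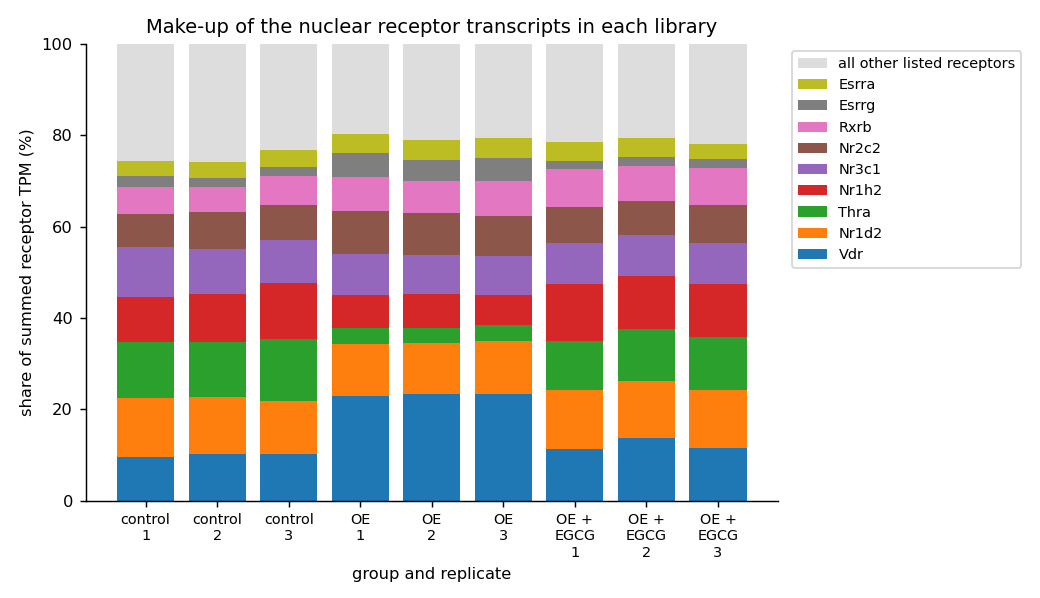
Share (%) of the summed TPM of the 42 receptors held by each of the 9 leading genes in each library, with all others in grey; OE is Nr4a1 overexpression. The Vdr segment spans 22.9% to 23.4% in the overexpression libraries and 9.45% to 13.6% in the other 6, and the Thra segment is narrow, at 3.36% to 3.58%, in the overexpression libraries alone.

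The 23 receptors below the threshold had sums of 5.32, 4.85 and 3.30 TPM for control, 2.10, 2.99 and 2.77 TPM with overexpression and 2.31, 2.27 and 2.72 TPM with EGCG. Nr0b1 was listed at 0 in every library, and Rorb, Nr2e1, Nr2e3, Nr5a1 and Hnf4g were at most 0.17 TPM in any. Hnf4a, a regulator of insulin secretion genes in islets, was between 0.13 and 0.42 TPM with no separation of the groups, and the islet and liver receptor Nr5a2 was at 0.34, 0.09 and 0.09 TPM in control and at most 0.01 TPM elsewhere. Of the 23, 12 were lower in every overexpression library than in every control library and 1 was higher, and 11 had their highest value in control replicate 1. Over all tested genes these groups did not overlap, in either direction, for 65.0%. The share over all genes below the threshold was not counted. Genes of olfactory, vomeronasal and trace amine receptors, which act in sensory neurons, were also lower with overexpression than in control, and their sum fell by a larger factor. The 1478 of them had sums of 108, 91.7 and 50 TPM for control, 4.22 to 4.71 TPM with overexpression and 7.85 to 11.8 TPM with EGCG, and 59.5% were lower in every overexpression library than in every control library, against 52.2% of the 23. The summed level of both sets was thus highest in the control libraries, and the part of such low-level signal in the values of these 23 was not tested. With the mean chemoreceptor TPM of each library subtracted from every gene the counts of called receptors were the same 15, 12 and 2. That mean was only 0.00286 to 0.0728 TPM per gene. Beside the levels of the expressed receptors it could hardly change a call, so the unchanged counts decide nothing about low-level signal.

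**Figure D5:**
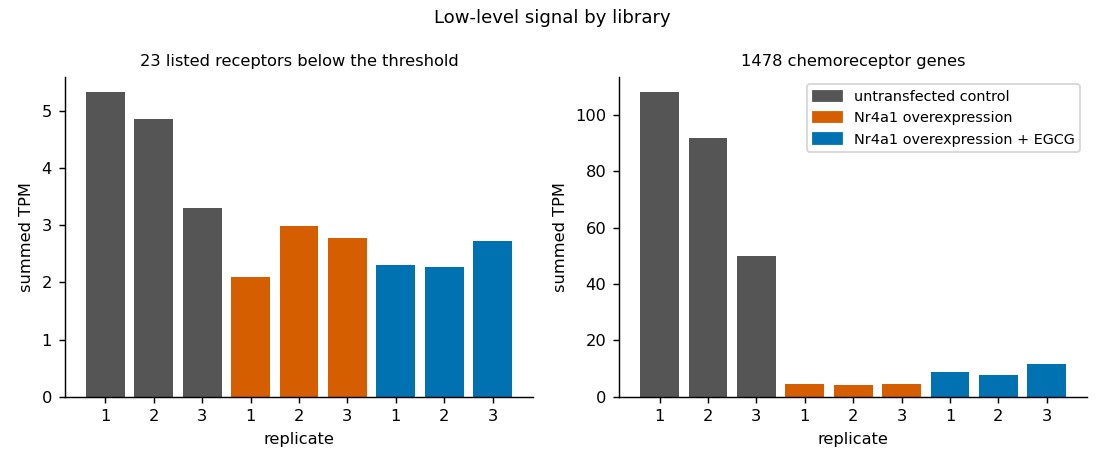
Summed TPM in each library of the 23 receptors below the threshold (left) and of 1478 chemoreceptor genes (right), with bars coloured by group. Both sums are highest in control replicate 1 and lower in control replicate 3, and the chemoreceptor sum is at most 11.8 TPM in the other 6 libraries.

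Other genes of the receptors' pathways came from 9 lists and were tested in the same fit, so that their called shares stand beside the backgrounds of 59.5% between overexpression and control (38.2% higher and 21.3% lower) and 53.0% between EGCG and overexpression (18.8% higher and 34.1% lower). Per3, Cyp26b1, Rdh10, Slc25a20, Mttp, Cyp27a1 and Nrip1 were under 1 TPM in some libraries, passed the threshold through the others, and are left out where a count is given without them. Of 13 expressed clock genes 5 fell and 0 rose with overexpression (4 and 0 without Per3), 38.5% called against 59.5%, with a median difference of -0.13 against 0.10 over all tested genes. With EGCG 7 rose and 1 fell relative to overexpression (6 and 1 without Per3), 61.5% called against 53.0%, with a median of 0.30 against -0.09. Bhlhe40, a repressor of clock genes, fell from 12.1 ± 1.2 to 3.66 ± 0.521 TPM and was 19.3 ± 1.41 TPM with EGCG (SD, n = 3). Dbp, an output gene of the clock, fell from 12.4 ± 0.422 to 7.59 ± 0.197 TPM and was at 14.2 ± 0.975 TPM with EGCG, and the repressor Per3 was at 1.24 ± 0.126, 0.530 ± 0.030 and 1.72 ± 0.239 TPM. Bhlhe41, a relative of Bhlhe40, fell by 0.99 on the log2 scale (limma adjusted p = 0.00163). Arntl, the activator that drives Nr1d1, was at 3.94 ± 0.346, 3.51 ± 0.127 and 3.07 ± 0.223 TPM, called only between EGCG and control (-0.28, adjusted p = 0.0278); that call was lost without control replicate 2 (-0.23, adjusted p = 0.0871), EGCG replicate 1 (-0.23, adjusted p = 0.0988) or EGCG replicate 2 (-0.30, adjusted p = 0.0501) and with only the 6 libraries compared (-0.28, adjusted p = 0.0746).

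Of 6 expressed LXR targets 3 fell and 1 rose with overexpression, 66.7% called against a background of 59.5%, with a median of -0.13 against 0.10. The lipogenic desaturases Scd2 (250 ± 6.92 to 74.9 ± 1.97 TPM) and Scd1 (30.2 ± 0.8 to 14.9 ± 0.825 TPM) and the lipogenic regulator Srebf1 (23.0 ± 1.62 to 18.5 ± 0.68 TPM) fell, and the cholesterol exporter Abcg1 rose from 16.1 ± 0.948 to 26.6 ± 1.63 TPM. The call of Srebf1 was lost with protein-coding transcripts only (-0.21, adjusted p = 0.0626). With EGCG the same 3 desaturase and regulator genes were higher than with overexpression and Abcg1 was lower, at 221 ± 8.73, 39.6 ± 1.57, 26.1 ± 2.36 and 18.4 ± 2.67 TPM. Scd1 with EGCG was above control as deposited (0.38 on the log2 scale, limma adjusted p = 0.00484), but summed over protein-coding transcripts only it was -0.20 (adjusted p = 0.102).

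Of 7 expressed PPAR targets 5 rose and 0 fell with overexpression (4 and 0 without Slc25a20), where 38.2% of all tested genes rose and 21.3% fell, with a median of 0.54 against 0.10. With EGCG 5 fell and 0 rose relative to overexpression (4 and 0 without Slc25a20), where 34.1% fell and 18.8% rose, with a median of -0.36 against -0.09. Ppard itself moved in the opposite direction in both comparisons. Cpt1a, the rate-limiting carnitine transferase of fatty acid oxidation, was at 7.79 ± 0.306 TPM in control, 15.1 ± 0.308 TPM upon overexpression and 11.6 ± 0.783 TPM when EGCG was added (SD, n = 3). The acyl-CoA thioesterase Acot2 was at 3.07 ± 0.344, 5.68 ± 0.551 and 2.30 ± 0.221 TPM, the mitochondrial carnitine carrier Slc25a20 at 0.993 ± 0.126, 2.01 ± 0.206 and 1.14 ± 0.127 TPM and the peroxisomal enzyme Ehhadh at 2.37 ± 0.095, 3.11 ± 0.0643 and 2.38 ± 0.0814 TPM.

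Of 4 expressed genes of retinoid handling 2 rose and 2 fell with overexpression, against 59.5% called over all tested genes; without Cyp26b1 and Rdh10 it was 1 and 1 of 2. The retinaldehyde reductase Dhrs3 fell from 6.56 ± 0.626 to 2.69 ± 0.127 TPM, the retinoic acid hydroxylase Cyp26b1 was at 1.74 ± 0.0493 and 0.573 ± 0.101 TPM, and both are known to be induced by retinoic acid. Of the retinol dehydrogenases Rdh11 rose from 7.82 ± 0.473 to 14.0 ± 0.84 TPM, and Rdh10 was at 0.690 ± 0.0755 and 1.23 ± 0.0777 TPM. With EGCG the means of all 4 lay on the same side of the overexpression level as those of control. Dhrs3 was at 8.46 ± 0.461 TPM, Cyp26b1 at 1.61 ± 0.164 TPM, Rdh10 at 0.687 ± 0.0208 TPM and Rdh11 at 9.87 ± 0.439 TPM.

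Of 4 expressed genes of thyroid hormone handling and action 2 rose and 2 fell with overexpression, and all 4 were called the other way with EGCG against overexpression, with backgrounds of 59.5% and 53.0% called. The hormone-responsive Klf9 fell from 14.4 ± 0.745 to 6.98 ± 0.412 TPM and the lipogenic malic enzyme Me1 from 28.9 ± 1.09 to 15.6 ± 1.46 TPM. The transporters Slc16a10 and Slc7a8 rose, from 8.12 ± 0.111 to 11.7 ± 0.179 TPM and from 1.23 ± 0.0702 to 2.95 ± 0.121 TPM. With EGCG these 4 genes were at 11.4 ± 0.616, 25.8 ± 0.777, 6.97 ± 0.787 and 1.37 ± 0.14 TPM.

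Klf9 also stands on the list of glucocorticoid targets, of which 6 were expressed, 2 fell and 0 rose with overexpression, 33.3% called against a background of 59.5%, with a median of -0.18 against 0.10. The other one that fell was the phosphatase gene Dusp1, at 12.2 ± 0.195 TPM in control, 4.38 ± 0.325 TPM with overexpression and 9.97 ± 1.07 TPM with EGCG. With EGCG 3 rose and 1 fell relative to overexpression (66.7% called against 53.0%). Among 5 expressed targets and partners of HNF4 2 rose and 1 fell with overexpression (60% called against 59.5%; 1 and 1 without Mttp). The thyroxine carrier Ttr rose from 9.84 ± 1.11 to 51.9 ± 2.41 TPM and was at 12.7 ± 1.53 TPM with EGCG, the lipid transfer protein Mttp was at 0.627 ± 0.0208, 1.41 ± 0.0586 and 0.707 ± 0.0802 TPM, and the transcription factor Foxa2 fell from 17.5 ± 1.5 to 12.7 ± 0.448 TPM and was at 11 ± 1.37 TPM. With EGCG 1 rose and 2 fell relative to overexpression (1 and 1 without Mttp), against 53.0% called. The one that rose was Pklr, the pyruvate kinase of liver and red cells (0.58, limma adjusted p = 0.0123), from 1.28 ± 0.394 to 2.38 ± 0.308 TPM. Of 3 expressed targets of the vitamin D and xenobiotic receptors 0 were called with overexpression by limma, and 0 at an unadjusted p under 0.05. With EGCG 1 was called higher and 1 lower relative to overexpression. The electron donor of cytochromes P450, Por, was at 16 ± 2.34 and 16.3 ± 1.51 TPM and fell with EGCG to 11.8 ± 1.24 TPM. Cyp27a1, the sterol 27-hydroxylase, was at 0.603 ± 0.119 TPM with overexpression and 1 ± 0.171 TPM with EGCG; it passed the threshold through its higher libraries, and with no filter on low values the difference of 0.32 was not called (limma adjusted p = 0.0871).

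Of 22 expressed coregulators, the proteins through which nuclear receptors activate or silence genes, 6 rose and 6 fell with overexpression, 54.5% called against a background of 59.5%, with a median of -0.02 against 0.10. The corepressor scaffold Sin3a fell from 17.6 ± 0.383 to 10.2 ± 0.654 TPM and was at 16.1 ± 2.89 TPM with EGCG. The coactivator Ncoa6 fell from 8.70 ± 0.701 to 6.33 ± 0.489 TPM and Ncoa7 from 8.61 ± 1.09 to 6.23 ± 0.285 TPM, while Ncoa4, an androgen receptor coactivator also known as the ferritin autophagy receptor, rose from 18.1 ± 1.13 to 27.2 ± 1.37 TPM. With EGCG 3 rose and 5 fell relative to overexpression (3 and 4 without Nrip1), 36.4% called against 53.0%. Gps2, a subunit of the NCoR complex, fell from 21.1 ± 2.56 to 11.8 ± 1.64 TPM, and the corepressor Nrip1 was at 1.57 ± 0.152 and 0.840 ± 0.157 TPM.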

How the data were processed

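Per the labels' protocols, an RNeasy kit gave the RNA and a TruSeq stranded kit for total RNA the libraries. The authors deposited TPM per Ensembl transcript; per the submitters' processing notes the tools included RSEM 1.2.31 and STAR 2.7.1a, with cutadapt 2.8, FastQC 0.11.9 and bcl2fastq 2.20, and the build was GRCm39. The sources used here do not give the annotation release or strand setting. TPM keeps no depth, so depth is unknown, and a rise of abundant RNAs lowers all other TPM.

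Transcripts were joined to genes with GENCODE M21, used for names, coding lengths and exon overlaps only. Of 142435 identifiers 97.13% matched, and the 4089 others held 18% to 20.6% of a library's TPM. TPM was summed per gene, and log2(TPM + 1) was fitted with limma 3.58.1 in R 4.3.3 (eBayes with trend, Benjamini-Hochberg adjustment) over all 9 libraries. The fit was also run on simulated data, and the outcome is not given here. Titles of the samples gave groups and replicate numbers. Values are given in every library for receptors called in any comparison or at 10 TPM or more; of each other list up to 4 called genes of smallest adjusted p in a comparison could be named. The receptors, lists and tests were chosen with earlier results of these data known. Promoters are RefSeq's. Alternatives covered pseudocounts 0.1 and 0.5, filters, scalings, coding transcripts, subtraction of chemoreceptor signal, libraries in the fit, the trend, a replicate block and leaving out each library. Python 3.11.15 (pandas 2.3.3, matplotlib 3.10.9) served the rest.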

Additional observations from a re-analysis of the deposited data

How the results depend on the processing

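Of 595 values of called receptors under the alternatives 558 kept their direction and their call, 37 lost the call and 0 changed direction. Without a filter on low values, which adds receptors that are low in every library, 23 receptors were called with overexpression (16 lower) and 5 between EGCG and control (3 lower). Over all genes in that fit 31.6% (7798 lower, 4597 higher) and 12.2% (3563 lower, 1212 higher) were called. With at least 5 TPM required, which leaves 9 receptors to test, 8 were called with overexpression (3 lower) and 5 between EGCG and overexpression (3 higher, 2 lower). The shares called over all genes at that level were 65.2% and 58.7%. Among these 9, Esrrg reached 5 TPM only with overexpression, Thra only in control and EGCG libraries, and Esrra in no control library. The filter thus admitted these genes through libraries in which they were high, and the counts at this level are no separate check of their calls. With only the 6 libraries compared in the fit 1 receptor (Rxrb) and 9 genes of the other lists were called between EGCG and control, against 23 list genes with all 9 libraries. Over all tested genes 7.49% were called in that fit, against 18.2% with all 9 libraries.

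Leaving out 1 library at a time gave called shares over all tested genes of 52.6% to 60.8% with overexpression, 45.3% to 56.8% between EGCG and overexpression and 6.15% to 27.1% between EGCG and control. For receptors it gave 12 to 16, 10 to 13 and 1 to 3 called in the same order. For transcripts it gave 1 to 5, and for the other lists 6 to 25, between EGCG and control, the lowest without EGCG replicate 1; the list count was 7 and 9 without control replicates 1 and 2, 15 and 14 without overexpression replicates 1 and 3 and 14 without EGCG replicate 2. Differences that were not called as deposited changed sign in several settings. With median-ratio scaling Nr2f1 was 0.07 between EGCG and overexpression and Rxra -0.0038 between overexpression and control. With quantile normalization Nr2f1 was 0.0075 and Nr2c1 -0.02 (EGCG against control). After rescaling Esrra was 0.0066 and Nr2f1 0.11 (EGCG against overexpression) and Rarg 0.03 (EGCG against control). With coding transcripts only Nr2c2 was -0.04, Nr6a1 0.03 and Rarg 0.05 (EGCG against control), and Scd1, called at 0.38 as deposited, was -0.20 and not called. Leaving out single libraries took Nr2c1 from -0.03 to 0.09, Rarg from -0.12 to 0.02, Nr2f1 from -0.05 to 0.06 and Rxra from -0.03 to 0.06 in those comparisons. The cause was not tested.

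The main fit did not pair libraries by replicate number. Deviations of same-numbered libraries correlated by -0.02 to 0.21 and those of differently numbered ones by -0.24 to 0.12. The ranges overlapped, with the highest values among same-numbered libraries, so a weak pairing is not excluded. With the replicate block 15, 12 and 2 receptors were called as without it, and list genes between EGCG and control went from 23 to 12. Over all tested genes the shares called with the block were 56.3%, 49.2% and 10.2%. Depth is unknown, which limits what can be said of receptors under 1 TPM.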
